A study of Arabidopsis thaliana and Ginkgo biloba and Brassica rapa with 14 samples.

Results

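The isoleucine and valine tRNAs comprised every consensus sequence of the A. thaliana reference list whose name begins with Ile or Val, whatever its genome of origin. They were 10 of the 100 sequences, 5 for each amino acid, and stood for 61 of the 687 listed genes. Of these sequences 6 are nuclear, with 54 genes, and 4 are chloroplast, with 7 genes. An isodecoder here means 1 such consensus, named by its amino acid and anticodon, with N for nuclear and C for chloroplast, and a number where the list holds a further version. The methylation list holds 59 sites over 6 species and only 2 of them belong to these tRNAs, the tRNA Ile(AAT) site C48 and the tRNA Val(CAC) site C49. All values below are descriptions without a test, because each site has 1 value per species and the abundances come from 1 library.

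All samples of all 6 species are labelled wild type, with no mutant or treated group. A. thaliana RNA was from seedlings of 10 days, and its 3 RBS-seq (RNA bisulfite sequencing) replicates are given only as the authors' mean. T. durum was sampled as flag leaf, C. taxifolia as frond and N. oculata as cells in log phase, while B. rapa and G. biloba are labelled leaf but described as shoot apexes in the study's methods, and each of these 5 species has 1 RBS-seq library. RNA of tRNA size was cut from a gel before the libraries were made, and 1 A. thaliana RNA-seq library gave the abundances.

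5-methylcytosine in RNA resists bisulfite, so a methylated cytosine is still read as cytosine while an unmethylated cytosine is read as thymine. In eukaryotic tRNAs the enzyme TRDMT1 (also DNMT2) methylates C38 next to the anticodon, and its animal targets include a valine tRNA, while TRM4 enzymes, of which TRM4B is the active A. thaliana form, methylate cytosines where the variable loop meets the T stem, at positions 48 to 50. Isoleucine and valine tRNAs decode neighbouring codon boxes for branched-chain amino acids, and the adenosine that opens the anticodon of tRNA Ile(AAT) and tRNA Val(AAC) is usually deaminated to inosine in eukaryotes.

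The 5 nuclear sequences detected by RBS-seq are shown because their letters at 38, 48 and 49 are what the methylated and unmethylated isodecoders can be compared by. Each runs 5′ to 3′ in the DNA letters of the list, and capitals mark the anticodon, then position 38, then positions 48 and 49. Positions are structural tRNA positions, counted from the anticodon for 38 and back from the 3′ end, whose last listed base is 73, for 48 and 49.
Ile(AAT)-N: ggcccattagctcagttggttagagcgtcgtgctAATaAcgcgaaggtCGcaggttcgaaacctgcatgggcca
Ile(TAT)-N: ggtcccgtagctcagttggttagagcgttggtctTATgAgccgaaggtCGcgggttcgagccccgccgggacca
Val(CAC)-N: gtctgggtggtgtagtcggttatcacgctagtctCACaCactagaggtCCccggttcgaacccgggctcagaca
Val(AAC)-N: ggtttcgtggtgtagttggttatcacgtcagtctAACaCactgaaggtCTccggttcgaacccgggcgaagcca
Val(TAC)-N: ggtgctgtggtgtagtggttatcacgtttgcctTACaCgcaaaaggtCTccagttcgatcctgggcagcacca

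Methylation was called at 20% or more of the reads at a position, with at least 5 reads, as the study did. In A. thaliana, 2 of the 5 nuclear isoleucine and valine isodecoders detected by RBS-seq had such a site, against 24 of all 31 detected nuclear isodecoders, or 77.4%. The remaining detected nuclear isodecoders, for other amino acids, had such a site in 22 of 26 cases. tRNA Ile(AAT) was at 33% at C48 and tRNA Val(CAC) at 61% at C49, each as the authors' mean. Both are whole numbers, and the number of replicates behind each is not shown. tRNA Ile(TAT), tRNA Val(AAC) and tRNA Val(TAC) were detected but have no listed site. A site that is not listed was below 20% in every species or had no value, and the methylation list does not tell these apart.

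The same count was low in most of the other species. In B. rapa 1 of 4 detected nuclear members had a site at 20% or more (77.8% of all detected nuclear isodecoders), in T. durum 1 of 4 (74.1%) and in G. biloba 1 of 3 (70.0%). In C. taxifolia the 1 detected member had a site (66.7%), and in N. oculata the 1 detected member, tRNA Ile(TAT), had none (70.0%). Over the 6 species this makes 6 of 18 detections with a site, of isodecoders that recur from species to species and are not independent. tRNA Val(AAC) and tRNA Val(TAC) were each detected in the 4 seed plants (A. thaliana, G. biloba, T. durum and B. rapa) without a listed site in any of them.

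C48 of tRNA Ile(AAT) lies at the end of the variable loop, next to the T stem. It was at 33% in A. thaliana, 14% in B. rapa, 76% in T. durum, 79% in C. taxifolia and 59% in G. biloba, and was not determined in N. oculata, where the tRNA was not detected. Both Brassicaceae were lowest, B. rapa alone was under 20%, and T. durum and the green alga C. taxifolia were highest and lay 3 percentage points apart. Among the nuclear C48 sites with a value, 3 of 18 were lower than this site in A. thaliana and 2 of 19 in B. rapa, where the medians over those sites were 81.5% and 80%. In C. taxifolia 9 of 11 were lower, and the median there was 65%. The order of species therefore differed from that of the median, which was highest in T. durum at 86%.

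A. thaliana and B. rapa differed at this site by 19 percentage points, while the median absolute difference over the 38 nuclear sites with a value in both was 3.83, and 5 of those sites differed by more. A. thaliana was 43 points below T. durum, against a median difference of 4.5 over 36 sites, of which 3 differed by more. B. rapa was 62 points below T. durum, and 1 of 38 sites had a larger difference. The reads behind each percent are not known, other than at least 5, so the counting error of these differences is not known. In the C. taxifolia library the reads of this tRNA were matched to a sequence with the prefix Cr by the study's list, in T. durum and G. biloba to the A. thaliana consensus and one with the prefix Os, and in B. rapa to the A. thaliana consensus alone. Whether the reference bears on the values was not tested.

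C49 of tRNA Val(CAC) is the first base of the T stem. It was at 61% in A. thaliana, 64% in B. rapa and 0% in T. durum, and was not determined in the other species, where this tRNA was not detected. The pair of Brassicaceae differed by 3 percentage points, and both were more than 60 points above T. durum. The methylation list gives T. durum a numeric 0 here, not a text cell for an undetermined site or another base. The T. durum base itself was not read from its library here. After bisulfite a thymine reads the same as an unmethylated cytosine. With each cytosine read as thymine, the A. thaliana sequences of tRNA Val(CAC) and tRNA Val(AAC) are identical across this site. tRNA Val(AAC) was also detected in T. durum, and whether its reads bear on the 0 was not tested. None of the 38 nuclear sites with a value in both B. rapa and T. durum differed by more than the 64 points of this site, and 2 of 36 did so between A. thaliana and T. durum. Among nuclear C49 sites the T. durum median was 90% over 13 sites, and this was the lowest of them. In A. thaliana 4 of 15 C49 sites were lower than 61%, with a median of 90.3%. In T. durum the reads of this tRNA were matched to the A. thaliana consensus and to a tRNA Val(CAC) with the prefix Os.

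**Figure D1:**
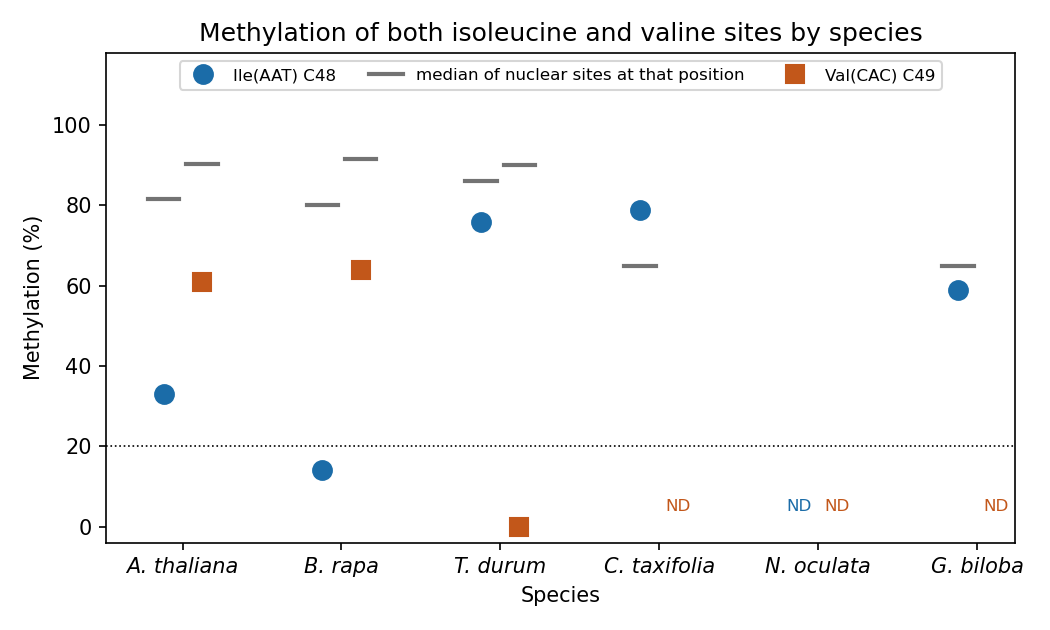
Methylation in percent (vertical axis) of C48 in tRNA Ile(AAT), circles, and C49 in tRNA Val(CAC), squares, by species; grey bars are the median of all nuclear sites at the same position, the dotted line is 20%, and ND marks a cell that was not determined. The isoleucine site runs from 14% in B. rapa to 79% in C. taxifolia, and the valine site is at 0% in T. durum.

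Over species, the isoleucine site spanned 65 percentage points and the valine site 64. These were the 9th and 10th widest of the 37 nuclear sites with values in at least 3 species, whose median range was 40 points. The isoleucine range rests on 5 species and the valine range on 3, while some other sites have 6. Added species can only widen a range, so these ranks do not compare like with like. The median range was 47 points over the 15 sites at C48 and 28.3 over the 12 at C49. Both sites belonged to the 12 of 37 that had species on both sides of 20%. Without T. durum the range of the valine site was 3 points, so that 1 library decides it.

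**Figure D2:**
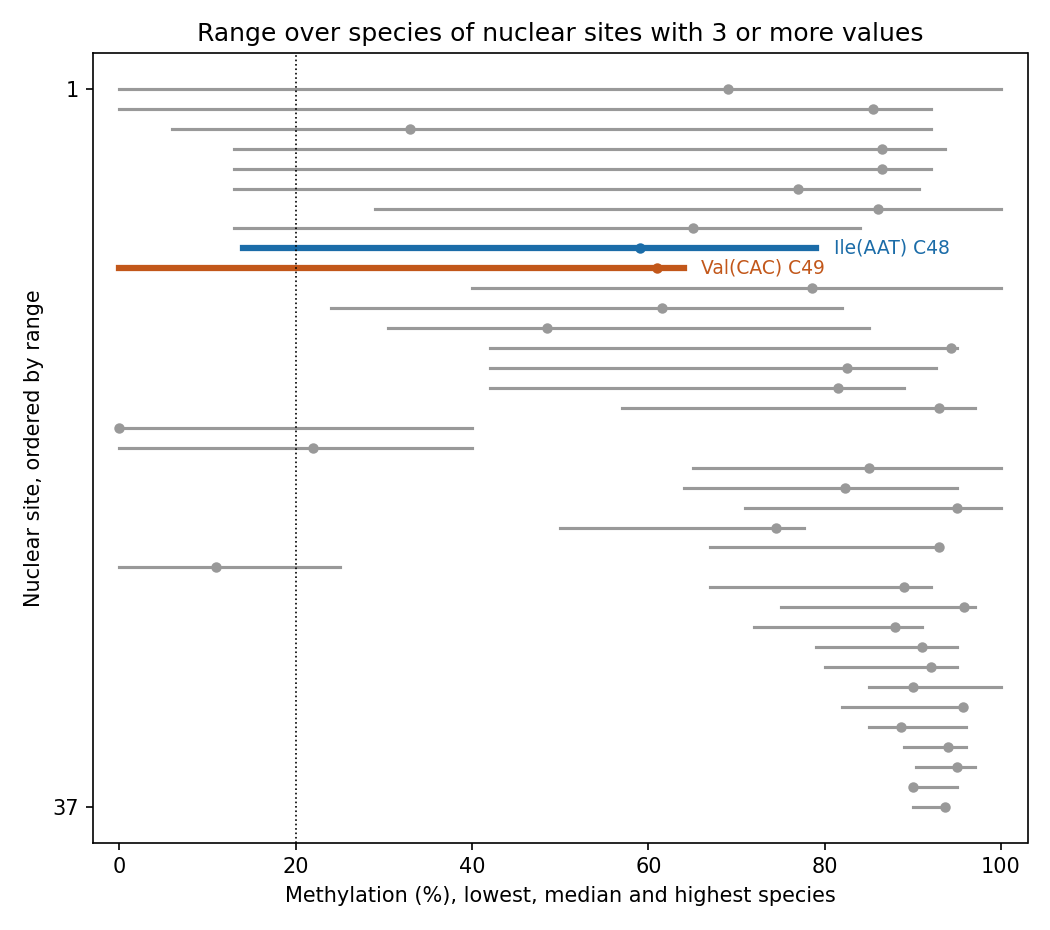
Lowest, median and highest methylation over species (line and dot, in percent) of the 37 nuclear sites with values in at least 3 species, ordered by range from the widest at the top; the dotted line is 20%. The isoleucine site, 14% to 79%, and the valine site, 0% to 64%, are coloured and rank 9 and 10.

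By values in the shared species, the sites nearest to tRNA Ile(AAT) C48 among 40 candidates were C48 of tRNA His(GTG) with a mean absolute difference of 21.2 percentage points over 4 species, C49 of tRNA Thr(TGT) with 22.5 over 3 and C49 of tRNA Gln(TTG) with 23.8 over 4. For tRNA Val(CAC) C49, among 39 candidates, they were C49 of tRNA Thr(TGT) with 30.5 points, C49 of tRNA Arg(ACG) with 33.9 and C48 of tRNA Asp(GTC) with 34.3, each over 3 species. Such distances were not computed between other pairs of sites, so whether these are large for listed sites was not tested.

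The base at 49 set the methylated valine isodecoder apart from the others, which have no cytosine there that could be methylated. Neither base, at 48 or 49, set the methylated isoleucine isodecoder apart from tRNA Ile(TAT). All 3 nuclear valine sequences have a cytosine at 38 and at 48, and neither position is listed as methylated in them. They differ at 49, where tRNA Val(CAC) alone has a cytosine, its methylated base, and both others have a thymine (C49T, with tRNA Val(CAC) first and positions as above). tRNA Ile(AAT) and tRNA Ile(TAT) have the same bases at these positions, an adenine at 38, a cytosine at 48 and a guanine at 49, and the site is listed for the former only.

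Set against all detected nuclear isodecoders of A. thaliana, the thymine at 49 was uncommon and the cytosine at 48 was not. A cytosine at 48 was present in 25 of the 31, the 3 valine and both isoleucine isodecoders among them, and 16 of the 25 (64%) were methylated there. A cytosine at 49 was present in 15 of the 31, and 14 of them (93.3%) were methylated there. A thymine at 49 was present in 2 of the 31, and these were tRNA Val(AAC) and tRNA Val(TAC). In both, the facing T stem base, position 65, is a guanine, so that the stem opens with a T-G pair in place of the C-G pair of tRNA Val(CAC). Over the 56 nuclear sequences that could be placed, a T-G pair there occurred in these 2 sequences only. A cytosine at 38 was present in 9 of the 31, among them the 3 valine isodecoders, and 3 of the 9 (33.3%) were methylated there.

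tRNA Val(CAC) belongs to the 11 detected nuclear isodecoders with cytosines at both 48 and 49, of which 10 were at 20% or more at C49 and 7 at C48. Its own C48 is not listed, as in tRNA Thr(TGT) and in no other of the 11. Its C49 value of 61% was above 2 and below 8 of the C49 values of that class, whose median was 93.7%. The values below it were 0% in tRNA Gln(TTG) and 30.5% in tRNA Thr(TGT).

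tRNA Ile(AAT) and tRNA Ile(TAT) belong to the 10 detected nuclear isodecoders with a cytosine at 48 and a guanine at 49, of which 9 were methylated at C48. The 1 without a listed site was tRNA Ile(TAT). Of the 9 values, that of tRNA Ile(AAT), 33%, was the lowest, with 65.5% in tRNA Lys(TTT) next to it and a median of 83%. The isoleucine isodecoders thus held both the lowest value of this class and its member without one.

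The methylated and unmethylated isodecoders of each amino acid were compared base by base. tRNA Ile(AAT) and tRNA Ile(TAT) were 77.0% identical, with 17 differences, of which 7 lay in the anticodon arm, 6 in the acceptor stem, 4 in the T arm and 0 in the variable loop. Around C48 they were identical from position 41 to 50, and the nearest differences were G40C and A51G, counted with tRNA Ile(AAT) first. A51G pairs with T63C across the T stem, so that the A-T pair of tRNA Ile(AAT) is a G-C pair in tRNA Ile(TAT). Next to the anticodon the change was A37G.

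tRNA Val(CAC) was 81.1% identical to tRNA Val(AAC) and 70.3% identical to tRNA Val(TAC). Over the 64 structural positions compared, it had 13 differences from tRNA Val(AAC), with 7 in the acceptor stem, 5 in the anticodon arm and 1 in the T arm. The single T arm difference was C49T, the methylated base itself. From tRNA Val(TAC) it had 21 differences, with 10 in the acceptor stem, 7 in the anticodon arm and 4 in the T arm, which were C49T, G52A, A59T and C62T.

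The bisulfite reads were aligned by the authors to references in which each cytosine was replaced by thymine. In those letters tRNA Val(CAC) and tRNA Val(AAC) were identical over 23 bases, from position 44 to 66 and across position 49, and were 87.8% identical in all. A bisulfite read lying wholly inside that stretch does not tell a converted C49 of tRNA Val(CAC) from the thymine of tRNA Val(AAC). tRNA Ile(AAT) and tRNA Ile(TAT) shared 10 bases across position 49 in those letters. The part of shared stretches in the methylation values was not tested.

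Of the nuclear valine isodecoders, the methylated one was the least abundant in the 1 library. RPM, the reads scaled to a common total, were scaled and rounded by the authors, and their steps give whole reads for all 87 values above 0 to within 0.005 RPM when 1 read is 0.342 RPM. tRNA Val(CAC), the methylated isodecoder, had 1.37 RPM or 4 reads (95% exact Poisson interval 0.373 to 3.50 RPM). tRNA Val(AAC) had 8.89 RPM or 26 reads (5.81 to 13.03 RPM) and tRNA Val(TAC) had 6.16 RPM or 18 reads (3.65 to 9.73 RPM). The interval of tRNA Val(CAC) lay below both others, while those of tRNA Val(AAC) and tRNA Val(TAC) overlapped. These intervals cover counting error only, since copies made by PCR are not independent molecules and there is no replicate.

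Per kilobase of consensus the levels were 18.5 RPM for tRNA Val(CAC), 120 for tRNA Val(AAC) and 84.4 for tRNA Val(TAC). tRNA Val(AAC) was 6.49-fold above tRNA Val(CAC) in RPM (95% interval 2.26 to 25.6, exact Clopper-Pearson on the split of reads), and tRNA Val(TAC) was 4.496-fold above it (1.48 to 18.3). On the log2(RPM + 1) scale, which understates changes of low values, tRNA Val(CAC) was at -2.06 and -1.60 relative to them. Divided by the number of genes, the levels were 0.171, 0.593 and 0.880 RPM per gene, in the same order of isodecoders. Per gene and without a pseudocount, tRNA Val(AAC) was 3.46-fold and tRNA Val(TAC) 5.14-fold above tRNA Val(CAC), so that gene number lowered the first ratio and raised the second.

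The isoleucine isodecoders were close to the limit of the library. tRNA Ile(AAT) had 0.34 RPM, a single read (interval 0.00866 to 1.91 RPM), and tRNA Ile(TAT) was listed at 0. A count of 0 allows about 3 reads, or 1.03 RPM, as a one-sided limit, and the two-sided Poisson interval used for the other sequences reaches 1.26 RPM. No ratio is given, since both lie at or under those 3 reads, and a difference between them was not detectable at this depth. Both were nevertheless detected by RBS-seq, where tRNA Ile(AAT) had at least the 5 reads the study required. Of the 58 nuclear sequences, 11 were listed at 0 and 7 had the same single read as tRNA Ile(AAT).

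Over all detected nuclear isodecoders, those with a methylated site had a median of 3.42 RPM (n = 24) and those without had a median of 3.76 RPM (n = 7). The medians were close but the ranges were not, 0 to 626.93 RPM with a site and 0 to 8.89 RPM without. Of the 7 without, 3 were isoleucine and valine isodecoders, and tRNA Val(AAC) was the highest of them. Without these 3 the median was 2.05 RPM (n = 4), so that the order of the medians turned. In that comparison tRNA Ile(AAT) and tRNA Val(CAC) were kept among those with a site. The 6 nuclear isoleucine and valine sequences together had 20.5 RPM, 60 reads, and the 4 chloroplast sequences had 115 RPM, 336 reads. All 10 held 0.0683% of the summed tRNA RPM.

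**Figure D3:**
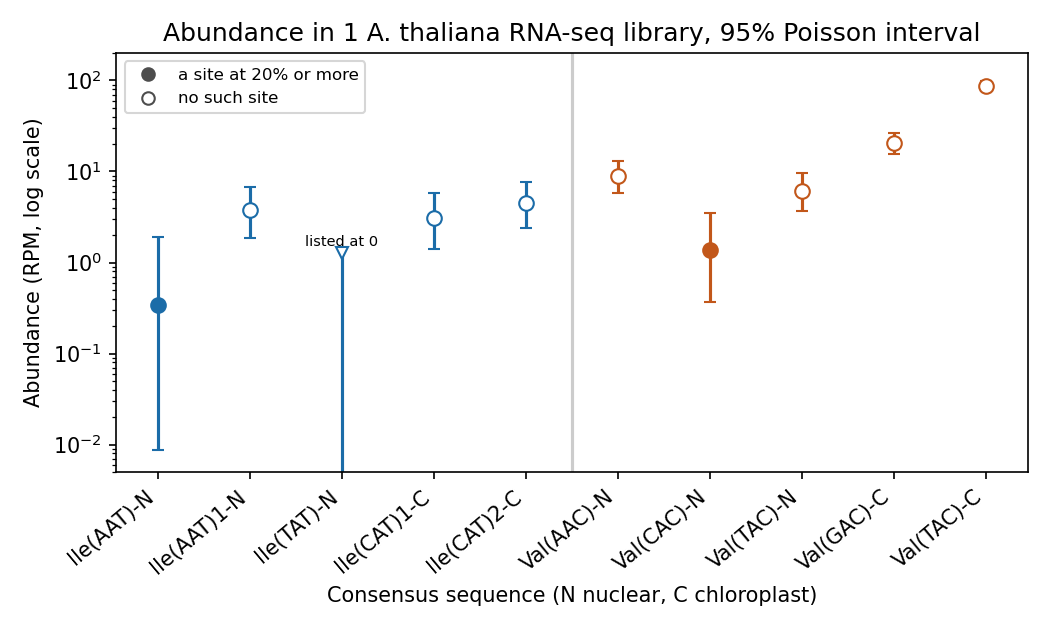
Abundance in RPM on a log axis of the 10 sequences in 1 A. thaliana RNA-seq library, with exact 95% Poisson intervals; blue is isoleucine, orange valine, filled points have a site at 20% or more, and the triangle is the upper end of that interval, 1.26 RPM, for the sequence listed at 0. The methylated tRNA Val(CAC), at 1.37 RPM, lies below tRNA Val(AAC) at 8.89 and tRNA Val(TAC) at 6.16.

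Gene number did not order the isodecoders by methylation. For isoleucine the methylated isodecoder had more genes, 17 for tRNA Ile(AAT) against 5 for tRNA Ile(TAT). For valine the methylated tRNA Val(CAC) had 8 genes, between the 15 of tRNA Val(AAC) and the 7 of tRNA Val(TAC). The detected nuclear isodecoders had a median of 9.5 genes with a methylated site and 9 without. tRNA Ile(AAT) had the 6th highest gene number of the 58 nuclear sequences, with 1 read in the RNA-seq library.

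The genes of these 5 isodecoders are spread over the genome (TAIR10 coordinates of the authors' list), and each gene of an isodecoder has exactly the length of its consensus, without an intron. The 17 genes of tRNA Ile(AAT) lie on all 5 nuclear chromosomes. The closest pair, AT4G26375 at chr4:13336337-13336410 and AT4G26385 at chr4:13341493-13341566, is 5083 bases apart. The 15 genes of tRNA Val(AAC) lie on 4 chromosomes, and AT3G45935, AT3G45955 and AT3G45965 form a cluster on chromosome 3 between 16885891 and 16894236, in which the nearest pair is 2451 bases apart.

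The genes of the methylated valine isodecoder lie far apart. tRNA Val(CAC) has 8 genes, of which 4 are on chromosome 5 (AT5G05985 at chr5:1804616-1804689, AT5G15175 at chr5:4929560-4929633, AT5G38155 at chr5:15225318-15225391 and AT5G56975 at chr5:23054771-23054844), and no pair is closer than 3124871 bases. tRNA Val(TAC) has 7 genes on 5 chromosomes, no pair closer than 11483699 bases. tRNA Ile(TAT) has 5 genes on 3 chromosomes, at least 3329430 bases apart. All 52 of these nuclear genes were annotated as tRNA genes by RefSeq (TAIR10.1).

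**Figure D4:**
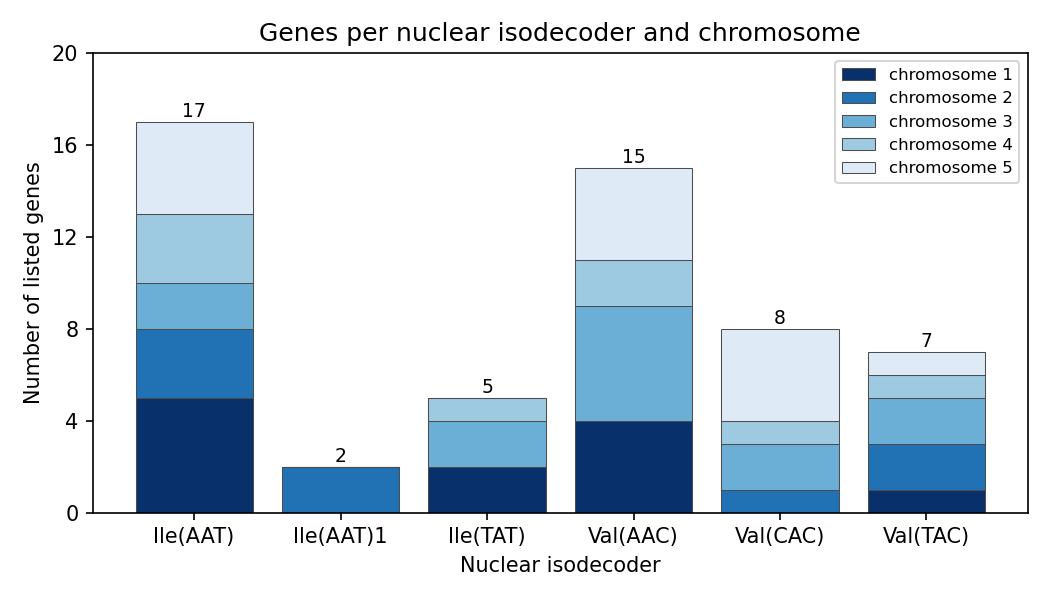
Number of listed genes (vertical axis) of each nuclear isoleucine and valine isodecoder, stacked by chromosome. The methylated isodecoders tRNA Ile(AAT), 17 genes, and tRNA Val(CAC), 8 genes, are the highest of isoleucine and the middle one of valine.

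The sixth nuclear sequence, Ile(AAT)1-N, stood apart from the rest. It is shown beside the chloroplast sequence nearest to it among the isoleucine and valine sequences.
Ile(AAT)1-N: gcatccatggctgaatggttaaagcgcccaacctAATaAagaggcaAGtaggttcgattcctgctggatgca
Ile(CAT)1-C: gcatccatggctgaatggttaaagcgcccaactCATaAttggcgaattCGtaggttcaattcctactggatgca
Its 2 genes, AT2G07742 at chr2:3239657-3239728 and AT2G07778 at chr2:3290966-3291037, are pseudogenes in RefSeq. At its anticodon, as labelled, only 2 of the 5 stem pairs form. Its base at 48 is an adenine counted from the 3′ end and a thymine counted from the anticodon. By neither count is it a cytosine. Ile(AAT)1-N was 84.0% identical to the chloroplast Ile(CAT)1-C, with a shared run of 32 bases, but 60% to tRNA Ile(AAT). It had 3.76 RPM, 11 reads (interval 1.88 to 6.73), the highest of the 3 nuclear isoleucine sequences, and Ile(CAT)1-C had 3.08 RPM, 9 reads (1.41 to 5.84). Reads of their shared stretch could fall to either, so that both levels are uncertain. Sequences for other amino acids were not compared with them. Neither is in the study's list of detected tRNAs.

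None of the 4 chloroplast sequences has a listed site. Ile(CAT)2-C and Val(TAC)-C are in the list of detected tRNAs, and 0 of the 17 chloroplast sequences detected in A. thaliana (0.00%) had a site at 20% or more. All 4 have a cytosine at 48, none has one at 49, and Val(TAC)-C alone has one at 38.
Ile(CAT)2-C: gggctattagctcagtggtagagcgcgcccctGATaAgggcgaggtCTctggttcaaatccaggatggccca
Val(TAC)-C: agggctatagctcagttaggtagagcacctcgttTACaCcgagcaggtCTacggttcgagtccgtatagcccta
Val(GAC)-C: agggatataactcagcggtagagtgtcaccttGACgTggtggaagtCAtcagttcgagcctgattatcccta
They are shown for their letters at 38, 48 and 49 and because the sequence named Ile(CAT)2-C reads GAT, not CAT, in the anticodon place. The study's list pairs it in T. durum, C. taxifolia and N. oculata with sequences of other references named Ile(GAT), so the name and the letters disagree.

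The chloroplast sequences ran from 3.08 to 86.9 RPM. Val(TAC)-C had 86.9 RPM, 254 reads (interval 76.5 to 98.2), the most of the 10, and Val(GAC)-C had 20.5 RPM, 60 reads (15.7 to 26.4), while Ile(CAT)2-C had 4.45 RPM, 13 reads (2.37 to 7.60). Per kilobase these were 1174, 285 and 61.8 RPM. The median of all 24 chloroplast sequences was 77.6 RPM, above 3 of these 4. The listed genes of Ile(CAT)2-C span 801 bases and that of Val(TAC)-C spans 673 bases, against 72 and 74 bases of consensus. Both tRNA genes are known to hold an intron in plant chloroplasts.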

How the data were processed

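Reads were trimmed, filtered and aligned by the authors in CLC Genomics Workbench (version not given in the sources used here). The deposited abundances are RPM from alignment to the unconverted consensus list. Methylation was deposited as a percent that the authors computed as cytosines divided by cytosines and thymines, from alignment to converted sequences, with at least 5 reads, and for A. thaliana as a mean over replicates. The reference list gives sequences and TAIR10 genes. Other values, such as text cells for an undetermined site or another base, were kept out of all numbers.

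The members and lists were chosen with earlier results of these data known. Every Ile and Val consensus was named, with the 3 sites nearest to each member site over at least 3 shared species. Detection was taken from the study's list of detected tRNAs. Whole reads were computed from RPM with 2923785 reads behind the scaling, the only whole total between 2898551 and 2985074 at which all values came out whole. Identity came from global alignment (Biopython 1.88; match 1, mismatch 0, gap -2 and -0.5). Python 3.11.15, NumPy 2.4.6, SciPy 1.17.1 and Matplotlib 3.10.9 were used. The read total and position steps were tested on simulated data. No test across genes was made, and RNA-seq of species other than A. thaliana was not used here.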

Additional observations from a re-analysis of the deposited data

How the results depend on the processing

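A minimum of 40% left 1 methylated member in A. thaliana in place of 2, since tRNA Ile(AAT) was at 33%. The range over species of the isoleucine site was 46 percentage points without B. rapa and 62 without C. taxifolia. That of the valine site was 61 without B. rapa and 3 without T. durum. With RPM per gene and the pseudocount of 1 kept, the log2 difference of tRNA Val(CAC) was -0.44 from tRNA Val(AAC) and -0.68 from tRNA Val(TAC), where it had been -2.06 and -1.60. All of these per-gene values lie below that pseudocount. The members held 1.60% of nuclear tRNA RPM when nuclear sequences alone were counted, and 0.258% of all when the 2 most abundant sequences were left out. Counted from the anticodon with a variable loop of 5 bases, 2 members in place of 1 had a cytosine at 49, the second being Ile(CAT)1-C, whose loop has 6. Of the 42 alternatives, 33 were counted as unchanged and 9 as moved. Counts were allowed 1.5 times and ratios their counting intervals. Ranges were held more tightly, since 62 against 65 points (isoleucine site) and 61 against 64 (valine site) were counted as moved. Only the log2 differences have a direction, and no alternative turned one. Some alternatives could not move a value, such as the filter on gene length, since each nuclear gene has the length of its consensus. Reading each cytosine as thymine was chosen after seeing the data and kept the identities between 78.4% and 87.8%.

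No paired analysis was possible because the A. thaliana replicates are given only as a mean and the other groups have 1 library, and for the same reason no replicate was left out. Of the 47 A. thaliana values, 31 are whole numbers, both member sites among them, so the number of replicates behind each mean is not shown. How many reads lie behind a percent is not known, other than at least 5. The bases were not compared with the genome sequence of each gene, an alternative that was not run. No ratio was computed for the isoleucine pair.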
